A study of Mus musculus with 2 samples.

Results

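The genes described here encode SR proteins, heterogeneous nuclear ribonucleoproteins (hnRNPs), the proteins named Snrp of the small nuclear ribonucleoproteins (snRNPs), and subunits of the splicing factors SF3a and SF3b. Members were the genes with a probe set annotated to a single symbol that begins with Srsf and a digit, with Hnrnp, with Snrp and a letter, or with Sf3a or Sf3b and a digit. This gave 46 of the 19938 genes in the table, namely 10 SR proteins, 17 hnRNPs, 10 Snrp genes and 9 SF3 subunits. They were measured by 64 probe sets, and the brightest probe set of a gene gave its value.

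The cells were neural precursors from the brain of Jcl:ICR mouse embryos at stage E11.5, taken from the forebrain. They received a control retrovirus or a retrovirus carrying HMGN1, a nucleosome-binding chromatin protein. Cells of both groups were grown with FGF2 and EGF, were moved to poly-D-lysine 3 days after infection and then spent 1 day without these growth factors before RNA was taken. There are 2 arrays, 1 per virus, so no difference has a replicate check and no test between the groups was possible.

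Splicing removes introns from precursor RNA on the spliceosome, which assembles from snRNPs on each intron. SR proteins bind exons through RNA recognition motifs and recruit the machinery through domains rich in arginine and serine, while many hnRNPs coat nascent RNA and can oppose exon use. The balance between such factors shapes the alternative exons of developing neurons and glia, and most of them are expressed in nearly every cell.

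Hmgn1 read 230 on the control virus array and 348 on the HMGN1 virus array, which is 1.48-fold after an offset of 16 was added to each intensity. All differences are log2(intensity + 16), HMGN1 virus minus control virus, and the offset compresses those of dim genes. Detection needed a mean intensity of 85.9, below which 95% of 1035 probe sets for olfactory receptors lay, and 11325 genes passed. All 7 neural precursor markers examined (Nes, Sox2, Pax6, Vim, Fabp7, Hes5 and Msi1) were detected, with differences from -0.041 to 0.11, whereas none of 4 endothelial and 1 of 5 microglial markers were. Among astrocyte markers 4 of 5 were detected and higher with HMGN1 (median 0.24), neuron markers ran from -0.17 to 0.22, oligodendrocyte lineage markers from -0.16 to 0.28 and 3 detected mesenchymal markers from -0.19 to 0.12. The part of these cells in the splicing gene values was not tested, and in such bulk RNA fewer cells of a type and less RNA per cell cannot be told apart.

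All 46 members were above the detection floor, and none differed by a log2 value of 0.32 in either direction. Of all detected genes, 0.494% were higher by at least that size and 0.521% lower. The members ran from -0.20 for Sf3b6 to 0.24 for Sf3b5, with an SD of 0.0937 among members, beside 0.111 among all detected genes. At any size 27 members were higher and 19 lower (58.7% higher), which is near the background of 60.1% of all detected genes higher and 38.4% lower. The members' median was 0.023 and that of all detected genes 0.027. Different probe sets of 1 gene scattered with an SD of 0.0916 (667 genes), and 31 of the 46 members lay within 1 such SD of 0.

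At the smaller size of 1.1-fold, chosen after the values were seen, 6 members were higher and 2 lower. The higher members were Sf3b5, Hnrnpm, Snrpd3, Srsf5, Hnrnph1 and Hnrnpul2, and the lower ones were Sf3b6 and Hnrnpa0. These are 13.0% and 4.35% of the members, beside a background of 13.1% higher and 7.2% lower. Beyond 2 SD of the scatter between probe sets (0.18) lay Sf3b5 and Hnrnpm on the higher side and Sf3b6 on the lower side, where the background was 6.11% higher and 3.54% lower. At both sizes the members' shares were at or below those of all genes.

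**Figure D1:**
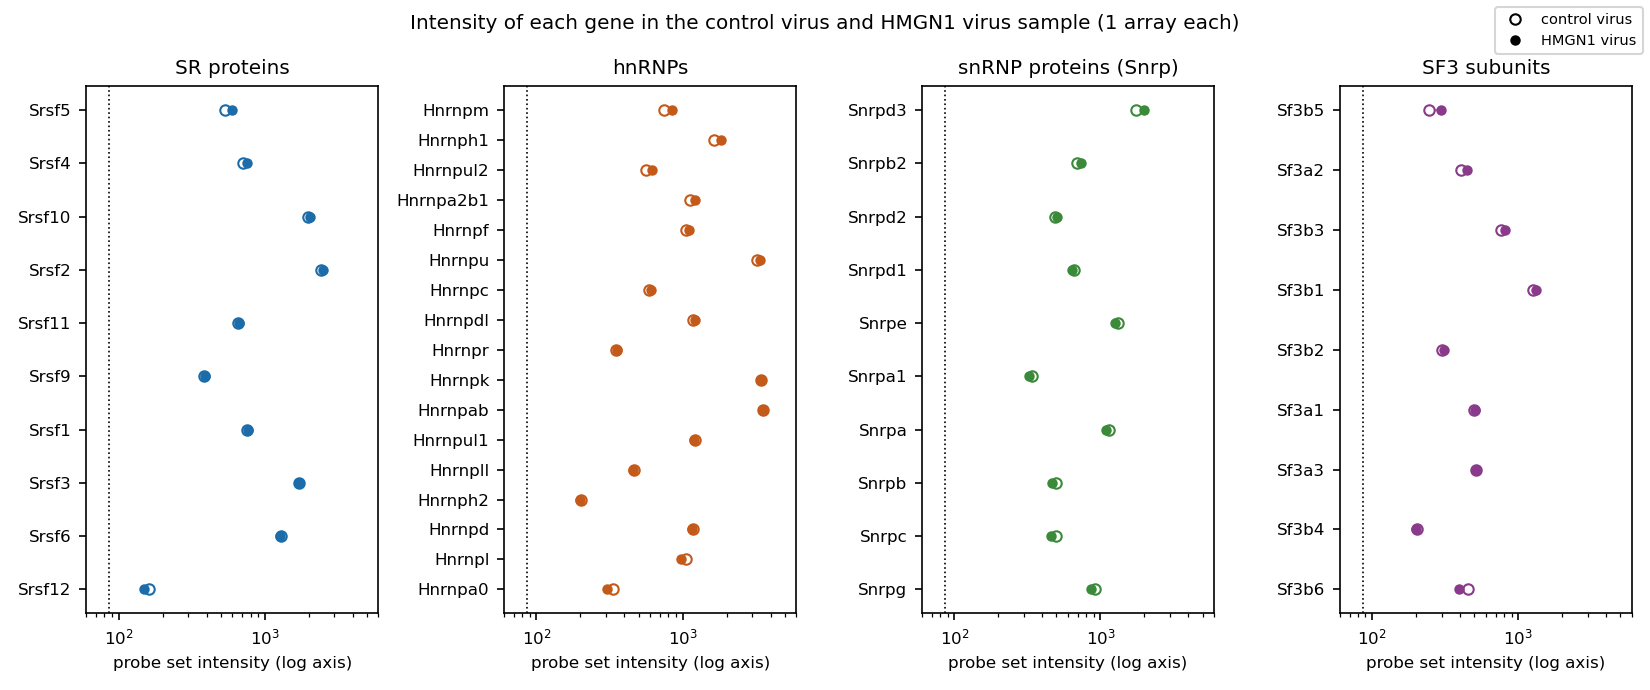
Intensity of each member's brightest probe set (log axis) in the control virus sample (open circles) and the HMGN1 virus sample (filled circles), by family and ordered by the difference. The dotted line marks the detection floor of 85.9, which every member exceeded, and the circles of each gene lie close together or overlap; levels of different genes come from different probes and are not comparable.

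SR proteins ran from -0.10 to 0.17. Of 10 genes 7 were higher and 3 lower (70% higher, beside 60.1% of all detected genes). Their median was 0.029, close to that of all detected genes. Srsf5, an SR protein that binds purine-rich exon enhancers, was highest, at 533 in the control virus sample and 601 in the HMGN1 virus sample (0.17, 1.12-fold). It has 2 probe sets with identical values, which therefore count as 1 measurement. Srsf4, a large SR protein, followed at 709 and 752 (0.084), and Srsf10, which acts as a splicing repressor when dephosphorylated, stood at 1971 and 2051 (0.057). A second, dim probe set of Srsf10 gave -0.018.

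The low end of this family was Srsf12, a divergent member related to Srsf10, at 161 and 149 (-0.10). It lay closest to the detection floor, and its difference was 1.11 times the SD between probe sets. Srsf6 read 1296 and 1277 (-0.022), and Srsf3, the smallest SR protein and also an adaptor for messenger RNA export, read 1724 and 1715 (-0.0079). Of the 2 other Srsf3 probe sets, 1 gave -0.0051 and the dimmest gave -0.20 (359 and 311). The brighter Srsf3 probe sets thus stayed near their control values, while the dimmest lay below its own. Which of them reads the gene itself and not a copy of it was not tested.

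Srsf1 and Srsf2, the archetypal SR proteins of constitutive splicing and exon enhancement, had differences of 0.016 and 0.040. Srsf9 (0.026) and Srsf11 (0.032) lay within the same narrow band. The signs of Srsf1, Srsf9 and Srsf11 turned negative in at least 1 of the alternatives that subtract the median of all genes or a trend, so these genes have no settled direction. The 7 classical members measured had a median of 0.026 and the 3 others (Srsf10, Srsf11 and Srsf12) 0.032. Srsf7, also a classical member, has no value here because no probe set carried that symbol.

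**Figure D2:**
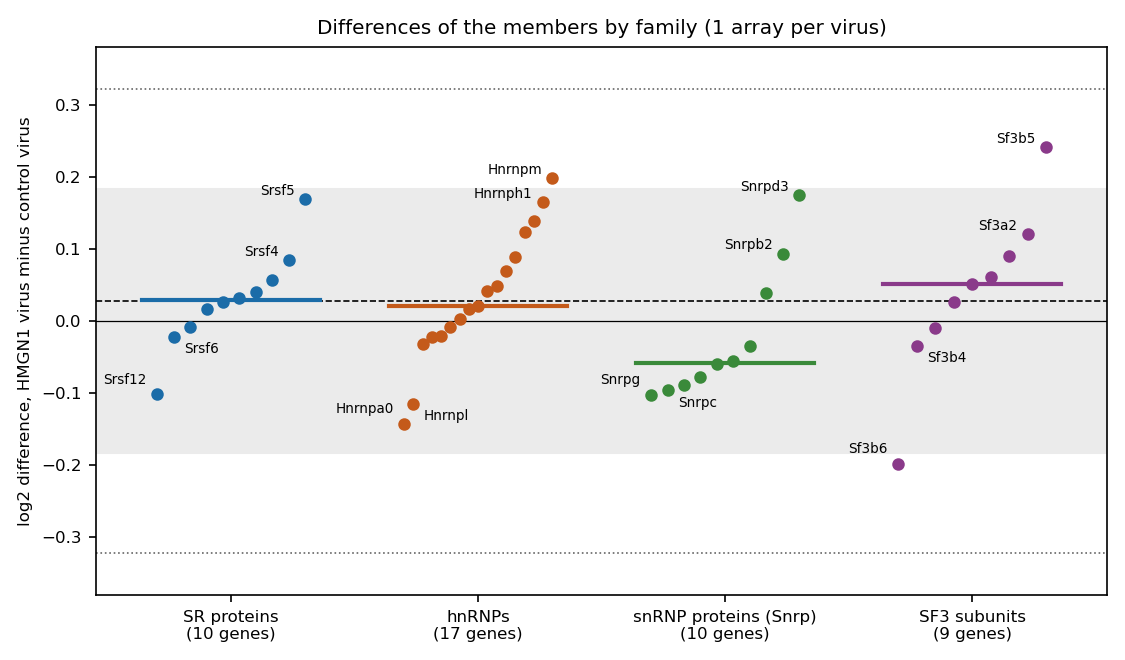
Log2 difference (HMGN1 virus minus control virus) of every member by family, sorted from low to high, with the family median as a thick line. The dashed line is the median of all detected genes (0.027), the grey band 2 SD of the scatter between probe sets of 1 gene (0.18 either way) and the dotted lines a difference of 0.32 either way. All points lie inside the dotted lines, and the median of the Snrp genes, -0.058, is the only family median below 0.

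The hnRNPs spread further, from -0.14 to 0.20, with 11 of 17 higher, 6 lower and a median of 0.020. Their share of higher genes was 64.7%, beside 60.1% of all detected genes. Hnrnpm, which binds GU-rich RNA and regulates alternative exons, was highest, at 741 and 852 (0.20, 1.15-fold), the 95.5 percentile of all detected genes. Hnrnph1, which binds runs of guanosines, read 1636 and 1836 (0.16, 1.12-fold). Hnrnpul2, a relative of the scaffold protein hnRNP U, read 558 and 616 (0.14). Each of these genes had 1 probe set, and only the value of Hnrnpm exceeded 2 SD of the scatter between probe sets.

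The lowest hnRNP was Hnrnpa0, a single-exon member of the A/B group that binds AU-rich elements, at 335 and 302 (-0.14). Hnrnpl, which binds CA repeats, read 1054 and 972 (-0.11), and Hnrnpd, also called AUF1 and active in messenger RNA decay, read 1177 and 1152 (-0.031). The L group (Hnrnpl and Hnrnpll, -0.020) was the only hnRNP subgroup with both members lower. Hnrnpl and Hnrnpll were each measured by 1 probe set.

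Within the A/B and D group the members went both ways. Hnrnpa2b1, a binder of RNA transport signals, was higher by 0.12 (1115 and 1216), while Hnrnpab (0.0024) and Hnrnpdl (0.042) stayed close to their control values. Hnrnpd and Hnrnpdl, close paralogs, differed by -0.031 and 0.042. In the F/H group Hnrnpf was higher by 0.089 and Hnrnph1 by 0.16, whereas Hnrnph2 on the X chromosome differed by -0.022.

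Further hnRNPs lay close to their control values. Hnrnpc, which binds uridine tracts, differed by 0.048, Hnrnpk, which binds cytidine-rich RNA, by 0.017, Hnrnpu, a nuclear matrix and chromatin-associated RNA-binding protein, by 0.070, Hnrnpul1 by -0.0087 and Hnrnpr by 0.020. The signs of Hnrnpab, Hnrnpk and Hnrnpr depended on the scaling, being negative in at least 1 of the alternatives that remove a median or a trend. Measured by 3 probe sets, Hnrnpk gave 0.012 to 0.017, and the 4 probe sets of Hnrnpf gave 0.079 to 0.11. Probe sets of 1 gene can share transcripts and can also catch processed gene copies, so such closeness describes these arrays and not replicate cultures.

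**Figure D3:**
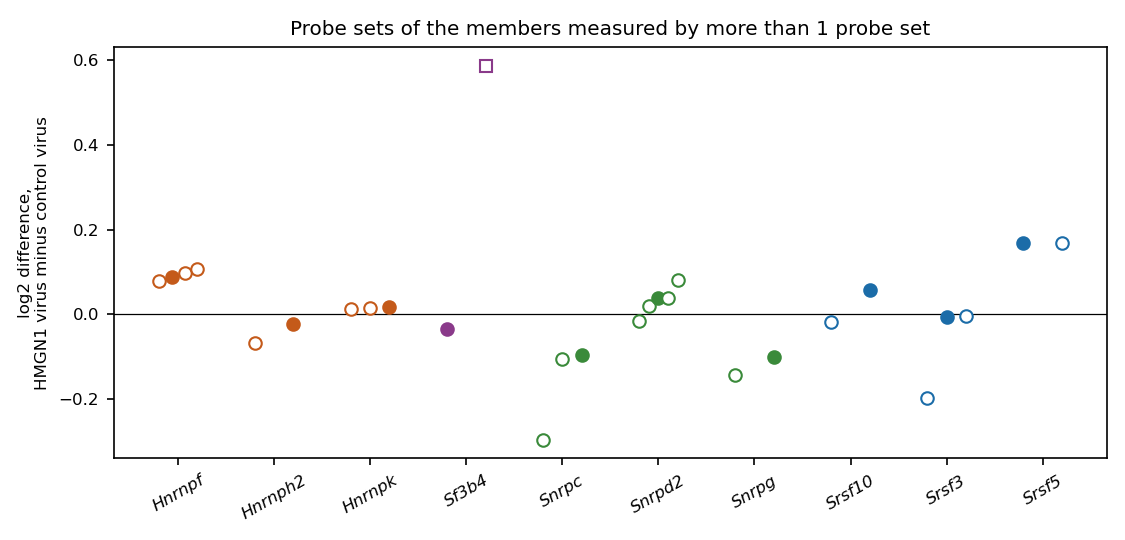
Log2 differences of every probe set of the 10 members with more than 1 probe set; filled symbols are the brightest probe set, which gave the gene its value, and squares lie below the detection floor. Some genes cluster tightly, as with Hnrnpk at 0.012 to 0.017, and the 2 values of Srsf5 are identical. The dim second probe set of Sf3b4 stands at 0.59 and the dimmest ones of Snrpc and Srsf3 at -0.30 and -0.20.

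In the values as deposited, the snRNP proteins named Snrp were the only family with more members lower than higher. Of 10 genes 7 were lower and 3 higher (70% lower, beside 38.4% of all detected genes), and their median was -0.058. Each of the 7 was small, between -0.035 and -0.10, and at most 1.11 times the SD between probe sets. The family median stayed negative in all 9 alternative settings, between -0.094 and -0.053. Its sign could not turn with the offsets of 1 and 64, centring or the other floors. Offsets keep each gene's sign, centring subtracted the positive median of all detected genes, and the floors kept all 10 genes. Elsewhere the Snrp median was -0.075 after quantile normalization, -0.094 with the intensity trend removed and -0.068 with the gene span trend removed. With either trend removed, Snrpb, Snrpc and Snrpg moved lower, so these settings were no strict check of the sign. With averaged probe sets the Snrp median was -0.058. Its sign could not turn there either, as each lower Snrp gene had a single probe set or only lower ones. Every setting reused the same arrays. No test of the Snrp median against other genes was possible with 1 array per virus.

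Sm proteins form the ring that every major snRNP except U6 carries around its RNA. Among the 6 Sm genes 4 were lower. Snrpg read 924 and 860 (-0.10), Snrpb, which makes the SmB proteins, 499 and 469 (-0.088), Snrpe 1312 and 1261 (-0.056) and Snrpd1 657 and 641 (-0.035). Against them, Snrpd3 was the highest of the family at 1748 and 1974 (0.17, 1.13-fold), and Snrpd2 read 491 and 505 (0.039). The partners in the ring thus did not share a direction: SmD3 pairs with SmB, and their genes stood at 0.17 and -0.088.

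The other 4 Snrp genes encode proteins of a single snRNP. Snrpc, a U1 protein that helps this snRNP hold the 5′ splice site, read 493 and 460 (-0.096). Snrpa, another U1 protein, read 1151 and 1090 (-0.078), and Snrpa1, a U2 protein, 340 and 325 (-0.060). Snrpb2, which encodes its binding partner on U2 RNA, was higher at 689 and 736 (0.093). The U1 genes named Snrp were therefore both lower, and the U2 pair was split. Snrnp70, a U1 protein gene outside the name pattern, read 734 and 732 (-0.0034).

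Several probe sets bear on the lower Snrp genes. All 3 of Snrpc were lower, at -0.096, -0.11 and -0.30, the last on the dimmest (307 and 247). Both of Snrpg were lower, at -0.10 and -0.14. The 5 probe sets of Snrpd2 ran from -0.017 to 0.081, and 4 of them were higher. Over the 10 members with several probe sets, those of 7 genes shared 1 sign, counting Srsf5 with its identical pair, and Sf3b4, Snrpd2 and Srsf10 had probe sets of both signs.

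Promoters of the lowest and the highest Snrp genes are shown to let their upstream sequences be compared. RefSeq promoter windows of GRCm38.p6, 250 bases before and 50 after each start site, were matched by gene number for 40 of the 46 members. Shown are upstream bases on the plus strand that lie outside any annotated gene: chr6:86371290-86371539 for Snrpg, chr2:143062819-143063068 for Snrpb2 and chr10:75517973-75518041 for Snrpd3, whose window is shortened by the neighbouring gene Gucd1. Capitals mark CCGGAAG or its reverse complement CTTCCGG, the core bound by ETS family factors.
Snrpg: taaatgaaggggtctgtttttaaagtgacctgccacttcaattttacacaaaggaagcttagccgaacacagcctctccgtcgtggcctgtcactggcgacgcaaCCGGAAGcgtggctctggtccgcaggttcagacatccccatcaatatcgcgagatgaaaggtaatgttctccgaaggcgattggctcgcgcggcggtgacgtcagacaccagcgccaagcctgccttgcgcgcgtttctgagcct
Snrpb2: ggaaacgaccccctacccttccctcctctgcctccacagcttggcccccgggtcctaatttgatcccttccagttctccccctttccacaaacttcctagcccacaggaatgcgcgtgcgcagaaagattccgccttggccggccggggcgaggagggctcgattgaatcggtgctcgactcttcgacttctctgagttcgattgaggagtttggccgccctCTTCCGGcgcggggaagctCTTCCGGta
Snrpd3: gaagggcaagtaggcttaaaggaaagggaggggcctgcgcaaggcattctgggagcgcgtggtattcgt
The lower gene Snrpg and the higher gene Snrpb2 both hold the motif, and the stretch shown for Snrpd3 holds none.

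The SF3 subunits had a median of 0.052, the highest of the families except after quantile normalization or removal of the gene span trend. Of 9 genes 6 were higher and 3 lower (66.7% higher, beside 60.1% of all detected genes). SF3a and SF3b belong to the U2 snRNP and hold it at the branch point of the intron. The highest of all members was Sf3b5, a small SF3b subunit, at 246 and 294 (0.24, 1.18-fold), the 98.1 percentile of all detected genes. The lowest of all members was Sf3b6, the p14 subunit that contacts the branch point adenosine, at 452 and 392 (-0.20), the 2.88 percentile. The extremes of the whole set were therefore subunits of the same complex, each measured by 1 probe set.

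The remaining SF3b genes lay between them. Sf3b1, the large scaffold subunit that recognises the branch point, read 1263 and 1319 (0.061). Sf3b3 read 756 and 805 (0.090) and Sf3b2 300 and 311 (0.052). In SF3a, Sf3a2 was higher at 408 and 446 (0.12), while Sf3a1 (500 and 509, 0.026) and Sf3a3 (513 and 510, -0.0095) were near their control values. The sign of Sf3a1 turned with the scaling, as for the SR proteins above.

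Sf3b4, a subunit that crosslinks to RNA near the branch point, was the member with disagreeing probe sets. The brightest gave 203 and 198 (-0.034), and the other gave 59.5 and 97.4 (0.59). The mean of the second probe set, 76.5, is under the detection floor, and the gap of 0.62 exceeds 3 SD of the scatter between probe sets (0.27). As the mean of its probe sets, Sf3b4 would stand at 0.28, which makes its direction unsettled. No other member's probe sets differed by that much.

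The ETS core was common in the promoters of SF3 genes, a feature the choice of members did not use and that was looked at after the values were known. Of the 7 SF3 genes with a promoter window 6 held CCGGAAG on either strand, beside 2 of 15 hnRNPs, 3 of 10 SR proteins and 4 of 8 Snrp genes. The share was 37.5% of the 40 members with a window and 19.8% of detected genes. Over single windows the share was 87.5% of 8 SF3 windows, of which the 2 of Sf3b2 overlap and share their match, 16.9% of the windows of detected genes and 8.86% of all 32851 windows. The windows of Sf3a1, Sf3a2 and Sf3b3 also overlap the neighbouring genes Ccdc157, Plekhj1 and Cog4, in that order. A match there is not tied to the SF3 gene alone. The stretches below show the match closest to the start site with up to 20 bases on either side, where these lie upstream and outside any annotated gene. Capitals mark the motif. They come from chr11:4160327-4160353 (plus strand), chr10:80798639-80798685 (plus), chr4:124714751-124714797 (plus), chr19:5295458-5295488 (minus) and chr12:4817518-4817564 (plus) of GRCm38.p6, in the order shown.
Sf3a1: gaaacggcgagagggcgggaCCGGAAG
Sf3a2: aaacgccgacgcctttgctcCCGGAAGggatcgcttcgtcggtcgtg
Sf3a3: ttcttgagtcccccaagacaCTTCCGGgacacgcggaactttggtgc
Sf3b2: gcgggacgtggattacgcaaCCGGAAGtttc
Sf3b6: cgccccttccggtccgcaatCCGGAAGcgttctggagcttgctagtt
The motif begins 7 bases before the start site in Sf3a1, 11 in Sf3b2, 70 in Sf3b6, 76 in Sf3a2 and 90 in Sf3a3. Sf3b6 holds a second copy, in lower case in its stretch.

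These motif matches did not go with 1 direction. Sf3a2, at 0.12, and Sf3b6, at -0.20, both hold the core, and Sf3b1, at 0.061, holds none in its window. Among members with a window, the 15 that hold the motif had a median of 0.032 and the 25 that do not had 0.020. The corresponding medians of all detected genes were 0.033 (1796 genes) and 0.027 (7262 genes). Of the other motifs searched on both strands, CACGTG was in 11.1% of member windows, 9.86% of those of detected genes and 7.15% of all windows. The TATA box, searched as TATAAA, was in 11.1%, 6.99% and 13.6% of them. A match is a run of letters and was not shown here to be a bound site.

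Probe sets annotated to several genes fall outside the rule but carry 5 further names of these families. All 9 probe sets of Hnrnpa3 and a copy of it, 8 of them with distinct values, were higher (0.055 to 0.14), and 4 of 5 probe sets of Hnrnpa1 and its copies were higher (-0.077 to 0.11). The probe set shared by Hnrnph3 and Aff3 read 817 and 957 (0.22). The probe sets holding Snrpf (362 and 355, -0.028) and the imprinted Snurf and Snrpn transcript (678 and 661, -0.035) were lower, on the same side as most Snrp genes. Which of the named genes gives these signals cannot be told apart.

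Of 65 further spliceosome proteins in the table, 64 were detected, 45 were higher and 16 lower (70.3% higher, beside 60.1% of all detected genes). Their median was 0.038, which came to 0.010 with centring and 0.0026 with the intensity trend removed. Prpf4, of the U4/U6 snRNP, was highest at 253 and 300 (0.23), followed by the cyclophilin Ppie at 137 and 156 (0.17). Eif4a3, the helicase of the exon junction complex, was lowest at 264 and 232 (-0.17), and the helicase Dhx16 read 224 and 201 (-0.15). Named after their values were seen, Prpf6 of the U5 snRNP (0.17) and the kinase Prpf4b (0.16) also stood at the high end. This list also holds snRNP proteins without the name Snrp, so it differs from the Snrp family partly by gene naming. Picked after their values were seen, they went both ways, as with Eftud2 (-0.058), Snrnp70 (-0.0034), Prpf8 (0.018) and Lsm3 (0.14). The difference between this list and the Snrp genes was not tested.

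SR protein kinases and SR-related proteins had a median of 0.051, with 20 of 25 detected genes higher and 5 lower (80% higher, beside 60.1% of all detected genes). These genes are long, with a median span of 34.2 kb, and with the gene span trend removed their median was 0.0076. Srek1, a regulator of SR protein activity, read 582 and 646 (0.15), and Son, a protein of nuclear speckles, 1157 and 1257 (0.12). At the low end were Luc7l2, a U1-associated protein, at 939 and 859 (-0.13) and Scaf1 at 309 and 287 (-0.097). Chosen after their values were seen, the kinases that phosphorylate SR proteins were Srpk1 (0.11), Srpk2 (0.081), Clk1 (0.021), Clk3 (0.11), Clk4 (0.11) and Dyrk1a (0.020, with -0.093 on a dimmer probe set), with Srpk3 under the detection floor.

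The hnRNP relatives that carry other names had a median of 0.0097, with 11 of 21 detected genes higher and 9 lower (52.4% higher, beside 60.1% of all detected genes). Cirbp, a cold-inducible RNA-binding protein, read 422 and 482 (0.19) and Pcbp3, a poly(C)-binding protein, 279 and 311 (0.15). Ralyl (106 and 93.9, -0.15), which lies close to the detection floor, and Pcbp4 (745 and 686, -0.12) were lowest. Of the paralogs whose exchange marks neuronal differentiation, named after their values were seen, Ptbp1 read 1143 and 1122 (-0.026), with a dimmer probe set at 753 and 628 (-0.25), and Ptbp2 stood at 0.10.

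Few of the spliceosome's RNAs were measured. Among symbols beginning with Rnu and a digit 2 of 5 were detected, and Rnu12, the U12 RNA of the minor spliceosome, read 732 and 503 (-0.53). The other, Rnu3a, is a U3 small nucleolar RNA and no part of the spliceosome, and read 332 and 254 (-0.37). Rnu5g (13.3 and 10.9), Rnu6 (3.93 and 3.71) and the histone processing RNA Rnu7 were under the floor. With the gene span trend removed, Rnu12 stood at -0.43 and Rnu3a at -0.27. That trend was fitted on protein-coding genes, the shortest of 0.231 kb, and the 2 RNAs have a median span of 0.181 kb. Both therefore took the value at the short end of the fit, which was made on another class of genes. Decreases of at least 0.32 were found for 59 of 11325 detected genes of all kinds but 24 of the 10880 that code for protein.

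**Figure D4:**
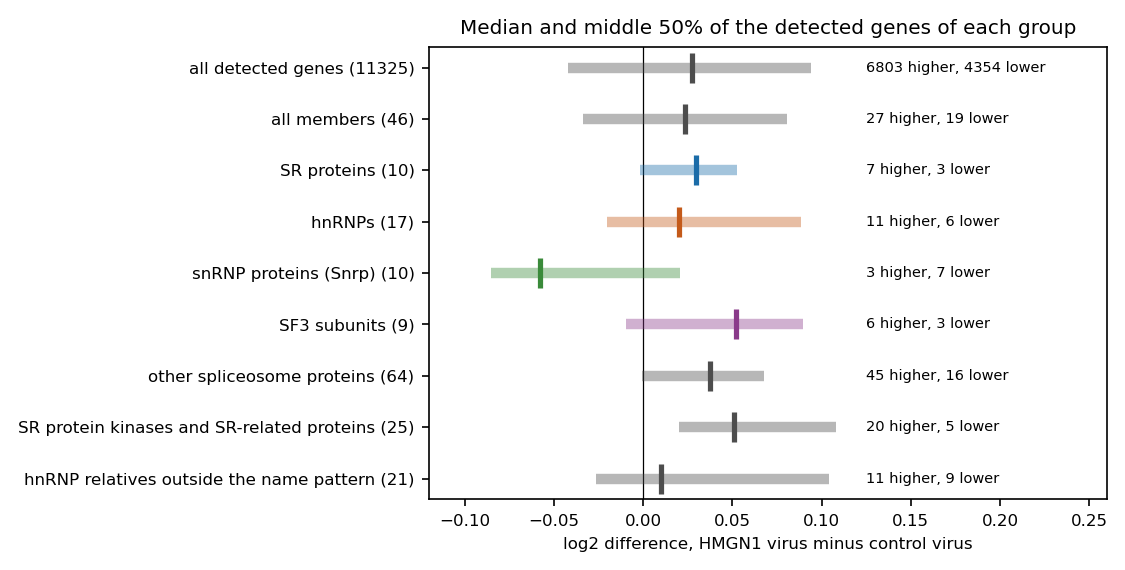
Median (vertical mark) and middle 50% (bar) of the log2 difference over the detected genes of each group, with the number of genes in parentheses and the counts higher and lower at the right. The snRNP proteins named Snrp, at -0.058, stand left of 0. All detected genes (0.027), the other families and the other lists drawn have medians right of it. Proteins of snRNPs with other names are counted among the other spliceosome proteins.

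Gene span, the genomic length from annotated start to end with introns, goes with the difference across all genes on these arrays. The rank correlation (Spearman's rho) of span with difference was 0.23 across 10880 detected protein-coding genes and 0.15 across the 46 members, a description across genes that are not independent replicates. Snrp genes are short, with a median span of 9.12 kb, beside 8.99 kb for SR proteins, 14.7 kb for hnRNPs, 17.6 kb for SF3 subunits and 24.9 kb for detected protein-coding genes. Genes of 8.04 to 12.5 kb had a median of 0.0059, above that of the Snrp genes. With the trend removed, the Snrp median was -0.068. Sf3b5 was the shortest member, at 0.734 kb. The part of gene span in the members' values was not tested further.

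**Figure D5:**
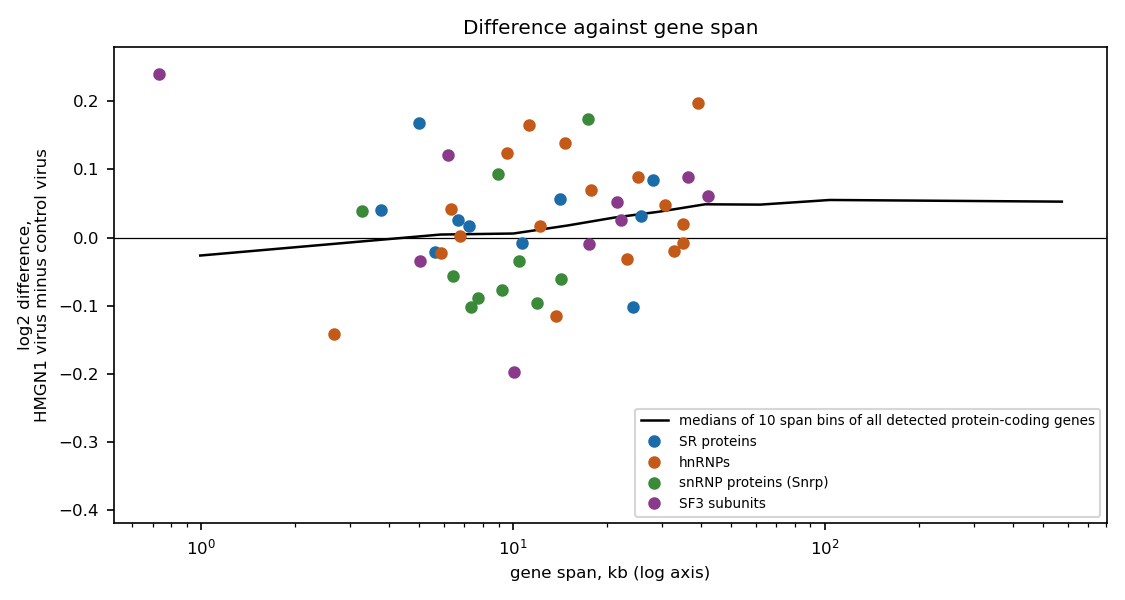
Log2 difference of each member against its gene span in kb (log axis), coloured by family, with a line through the medians of 10 equal bins of all detected protein-coding genes by span. Most Snrp genes lie below the line at spans of 6.41 to 14.3 kb, while the other families scatter on both sides of it.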

How the data were processed

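The authors deposited 1 linear intensity per probe set and array, for 28944 probe sets, made from biotin-labelled RNA per the labels' protocols; background correction, normalization and probe summary are not given in the sources used here. Medians were 101 and 98.8, and no further normalization was applied. GEO's platform annotation gave 21789 probe sets a single symbol, 1621 several and none to 5534. All 46 members matched the RefSeq table of GRCm38.p6 by gene number, and it changed none of their symbols. Where a gene had several probe sets, the one with the highest mean log2(intensity + 16) was used. The genomic position of probe sets was not considered, so the brightest, as for Sf3b4, Snrpc or Srsf3, can be one that catches a gene copy. The SD between probe sets used detected probe sets without identical copies.

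Genes named with values are, by rule, the 3 highest and 3 lowest members of each family, members with disagreeing probe sets, and the 2 highest and 2 lowest of each list; the other members are given so that all are accounted for. The members and lists were chosen with earlier results of these data known. With 1 array per virus no test was run. The number of arrays limits the precision. The code (Python 3.11.15, pandas 2.3.3, statsmodels 0.14.6) was tested on simulated data. Alternatives were offsets of 1 and 64, quantile normalization, centring, removal of trends with intensity or gene span (loess, span 0.3), averaged probe sets, other floors and other sizes.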

Additional observations from a re-analysis of the deposited data

Results flagged for a closer look

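The second probe set of Sf3b4, which the gene table does not use, was higher in the HMGN1 virus sample than in the control virus sample by 0.59 on the log2 scale (59.5 and 97.4), and it was the only such probe set of these genes past a log2 difference of 0.32. Its HMGN1 virus value is above the detection floor of 85.9 and its control virus value below it.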

How the results depend on the processing

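No paired analysis was possible because there is a single array on each side, and for the same reason no replicate could be left out. The counts of members higher or lower by 0.32, 0 and 0, became 2 and 1 with 2 SD between probe sets as the size and 6 and 2 at 1.1-fold, a size added after the values were seen; both act by construction. Centring on the median of detected genes gave 21 members higher and 25 lower, where 50% of all detected genes were higher. Removing the intensity trend also gave 21 and 25, where 50.1% of all detected genes were higher. The median of all members turned to -0.0039 with centring and to -0.012 with the intensity trend removed, and was 0.0010 with the gene span trend removed. The SR protein median turned to -0.0083 with the intensity trend removed. The hnRNP median was 0.045 after quantile normalization and -0.0069 after centring. The SF3 median was 0.013 with the intensity trend removed and 0.017 with the span trend removed, and the Snrp median was -0.094 with the intensity trend removed. Other spliceosome proteins had medians of 0.010 with centring, 0.0026 without the intensity trend and 0.013 without the span trend. SR protein kinases and SR-related proteins had 0.024, 0.017 and 0.0076 under the same settings. Centring acts by construction, and for the rest the cause was not tested. The Snrp median was the lowest of the 4 families in all 9 alternatives, but centring and the other floors could not change the order of the families. The order of the other 3 changed after quantile normalization and with either trend removed. Of the genes named with values by rule, Sf3b4 (0.28 as the mean of its probe sets) and, with the span trend removed, Rnu12 (-0.43) and Rnu3a (-0.27) moved by over 1 SD of the scatter between probe sets.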
